A study of Mus musculus with 10 samples.

Results

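The 87 genes described here encode the nuclear subunits of the oxidative phosphorylation machinery, out of 27179 genes in the count table. They were taken by symbol from the protein-coding nuclear mouse genes: names starting Ndufa, Ndufb, Ndufc, Ndufs or Ndufv, Uqcr, Atp5, or Cox5 to Cox8, together with Cox4i1, Cyc1 and Sdha to Sdhd. Of the 100 symbols that matched, 8 Ndufaf assembly factors and 5 pseudogenes were left out. The members fall into 38 genes of complex I, 4 of complex II, 9 of complex III, 19 of complex IV and 17 of complex V, with Ndufa4 and its paralog Ndufa4l2 placed in complex IV, where the Ndufa4 protein resides. No measured value entered the choice of members, but they were proposed with earlier results of these data known.

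Oxidative phosphorylation takes place in the inner mitochondrial membrane. Complex I (NADH dehydrogenase) and complex II (succinate dehydrogenase) feed electrons to ubiquinone, complex III passes them to cytochrome c, and complex IV (cytochrome c oxidase) hands them to oxygen; complexes I, III and IV pump protons, and complex V (ATP synthase) uses the proton gradient to make ATP. Most subunits are encoded in the nucleus and imported, while a core set of complexes I, III, IV and V is encoded by mitochondrial DNA. In the lung, epithelial cells that secrete surfactant or beat cilia are known for abundant mitochondria.

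Whole lung was sequenced from 10 mice, 5 per group, as polyadenylated RNA. The Flox mice carried 2 floxed alleles of the gene for IRE1α (Ern1), a stress sensor of the endoplasmic reticulum whose ribonuclease domain splices Xbp1 mRNA, and were wild type at Shh (Shh +/+). The mice called EpithelialKO carried the same 2 floxed alleles and 1 Shh allele with Cre in it (Shh Cre/+), so that Cre is expressed where Shh is, which in the lung is the developing epithelium. Both groups therefore carried floxed alleles, and the controls had neither Cre nor the altered Shh allele. Cells of the lung outside the lineage in which Cre was expressed keep Ern1 and are part of every library, and the labels give no age, sex or batch.

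Total counts were between 14983829 and 21224412 in the Flox mice and between 16234895 and 18870247 in the EpithelialKO mice. Expression is given as CPM, counts scaled to a common library size by TMM, and per-mouse values are listed in the order Flox mice 2, 3, 4, 5 and 6, then EpithelialKO mice 17, 18, 20, 21 and 22. The targeted gene, Ern1, stood at 20.2, 19.8, 15.7, 8.06 and 20.5 CPM in the Flox mice and 12.3, 15.5, 10.7, 21.9 and 26.1 CPM in the EpithelialKO mice, or 0.04 ± 0.27 as a log2 fold change with its SE, and so gives no check of the genotype. Flox mice 4 and 6 had 3949 and 4866 counts of Xist and 0 over 4 Y-linked genes, whereas in the other 8 mice Xist had 2 to 61 counts and the Y-linked genes 2462 to 3575. By these counts the sexes are unevenly spread over the groups, and values without those 2 mice are given beside the counts and medians of the members. They are also given for any of 24 members whose fold change they moved by more than 1.5 times. These 24 are the lowest-p members of each complex, the tissue-restricted isoforms and the associated members. Other named members were not followed in this way, so for them the absence of a value does not mean a stable fold change.

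Across the complexes, subunit transcripts were slightly more abundant in EpithelialKO lungs, and no single subunit passed the test. Of the 82 members with enough counts to test, 68 (82.9%) had a positive log2 fold change of EpithelialKO over Flox, against 50.1% of all 15301 genes tested. Their median log2 fold change was 0.13, a fold of 1.10, while the median over all tested genes was 0.00. None had an edgeR adjusted p under 0.05, where 6 genes of the whole table did (0.0392%), 1 of them higher in EpithelialKO (0.00654%) and 5 lower (0.0327%). The lowest edgeR adjusted p among the members was 0.153, for Ndufa11. At an unadjusted edgeR p under 0.05, 12 members were higher in EpithelialKO (14.6%) and 0 were lower, where 5.87% of all tested genes were higher and 6.52% lower. In either direction, 20 members (24.4%) had such a p without Flox mouse 5, where 15.5% of all tested genes did, and 7 (8.54%) without Flox mice 4 and 6, where 7.68% did, a share near that of the members. By the other tools, limma-voom called 0 members and 0.209% of all genes, and the DESeq2 Wald test called 1 member (Ndufa11) and 1.82% of all genes, so neither share of members was above the share of all genes.

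In 5 members, Ndufa11, Sdhb, Cyc1, Atp5o and Atp5c1, all 5 EpithelialKO values lay above all 5 Flox values, and in 0 members did they all lie below; over all tested genes these shares were 1.63% and 1.48%. In the same order their log2 fold changes without Flox mice 4 and 6 were 0.31, 0.29, 0.19, 0.27 and 0.26, and with an offset for transcript length and GC content they were 0.29, 0.23, 0.14, 0.17 and 0.14. These 5 include the iron-sulfur subunit of complex II, the cytochrome subunit of complex III and 2 subunits of the ATP synthase. RNA from whole lung does not tell a change in the number of cells of a type from a change in RNA per cell, so the values above are levels in the tissue.

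**Figure D1:**
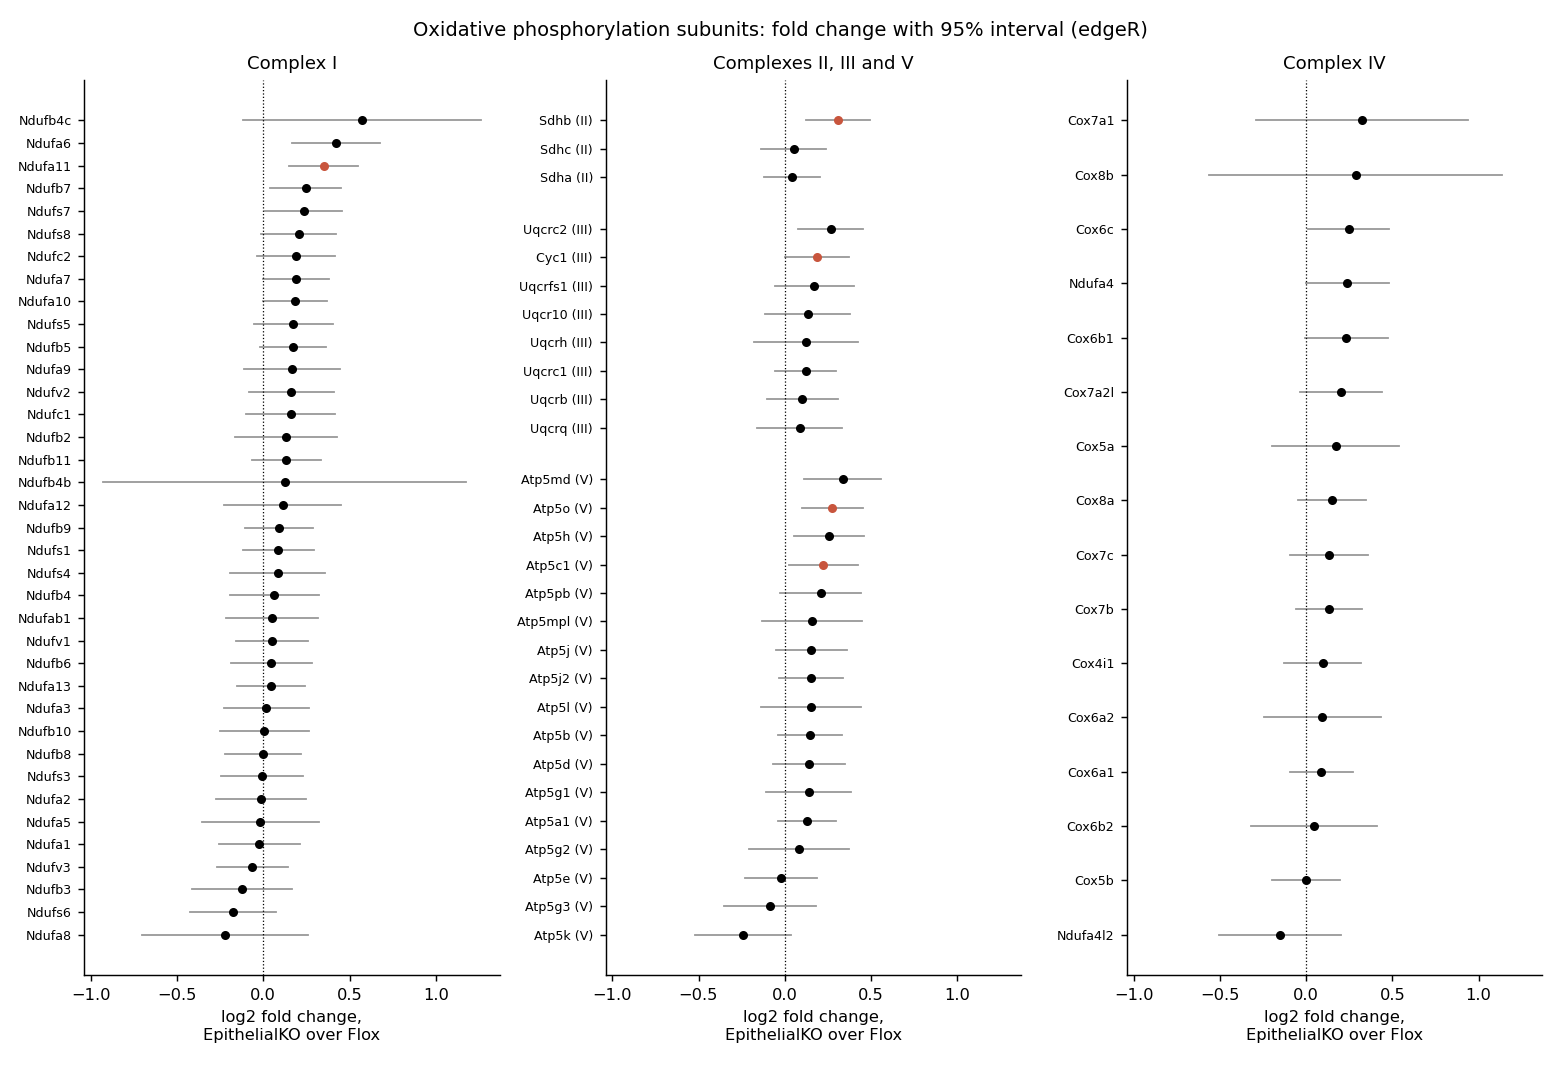
Log2 fold change of EpithelialKO over Flox for 81 tested members (x axis; point, edgeR estimate from 5 mice per group; line, 95% interval), sorted within complexes I, II, III, V and IV. Red points mark the 5 members whose groups do not overlap; 67 of 81 points lie right of 0, and the widest intervals belong to members with few counts such as Ndufb4b and Cox8b.

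By complex, the median log2 fold change was 0.10 in complex I (29 of 38 tested members positive), 0.05 in complex II (3 of 3), 0.13 in complex III (8 of 8), 0.14 in complex IV (14 of 16) and 0.15 in complex V (14 of 17). The standard error of a single gene had a median of 0.09 to 0.11 in each complex. It does not measure the spread of a median over genes that share mice, and differences between complexes were not tested. Without Flox mice 4 and 6 the medians were 0.07, 0.06, 0.08, 0.08 and 0.15 in the same order, with 62 of 82 members positive and a lowest edgeR adjusted p of 0.573. With an offset per mouse for transcript length and GC content they were 0.00, 0.05, 0.04, 0.03 and 0.10, with 50 of the 80 members that have a transcript model positive. The positive shift of complexes I, III and IV was therefore smaller by more than 1.5 times under both settings, and that of complex V was so under the offset.

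In complexes I, III, IV and V the range of mice within a group was wider than the difference between the group means. Taking the mean log2 CPM of the tested subunits of complex I relative to the Flox mean, the Flox mice stood at -0.10, 0.13, -0.06, 0.11 and -0.08 and the EpithelialKO mice at 0.20, -0.03, 0.18, -0.04 and 0.20. Flox mice 3 and 5 and EpithelialKO mice 17, 20 and 22 were high, and the remaining 5 mice were low, so the groups overlap. Complex V gave -0.09, 0.10, -0.04, 0.08 and -0.06 in Flox and 0.22, 0.03, 0.20, -0.00 and 0.19 in EpithelialKO, with the same mice high. In complex III the values were -0.09, 0.16, -0.03, 0.08 and -0.11 against 0.32, 0.04, 0.19, 0.03 and 0.17, and in complex IV -0.22, 0.09, -0.02, 0.23 and -0.09 against 0.28, 0.14, 0.17, -0.05 and 0.12. The order of mice was thus nearly shared by complexes I, III and V, and Flox mouse 5 stood above all but 1 of the EpithelialKO mice in complex IV. Of the 82 tested members, 19, 71, 25, 64 and 24 lay above their Flox mean in the Flox mice and 73, 39, 75, 40 and 69 in the EpithelialKO mice.

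Complex II and the catalytic F1 head of complex V were the groups of subunits without overlap between mice. The mean of the 3 tested complex II genes was 0.02, 0.01, -0.05, 0.00 and 0.01 in Flox and 0.16, 0.06, 0.23, 0.04 and 0.18 in EpithelialKO. For the 5 F1 subunits (Atp5a1, Atp5b, Atp5c1, Atp5d and Atp5e) it was 0.00, 0.06, 0.01, -0.05 and -0.03 in Flox and 0.11, 0.10, 0.17, 0.08 and 0.14 in EpithelialKO. Within complex II only Sdhb (log2 fold change 0.31) separated the groups by itself, while Sdha (0.04) and Sdhc (0.05) overlapped. Within the F1 head only Atp5c1 did so. Both are small groups, picked out of several after their values were seen, and they received no test. The 12 subunits of the membrane part and stalk of complex V, by contrast, had Flox values up to 0.14 and EpithelialKO values down to -0.04.

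**Figure D2:**
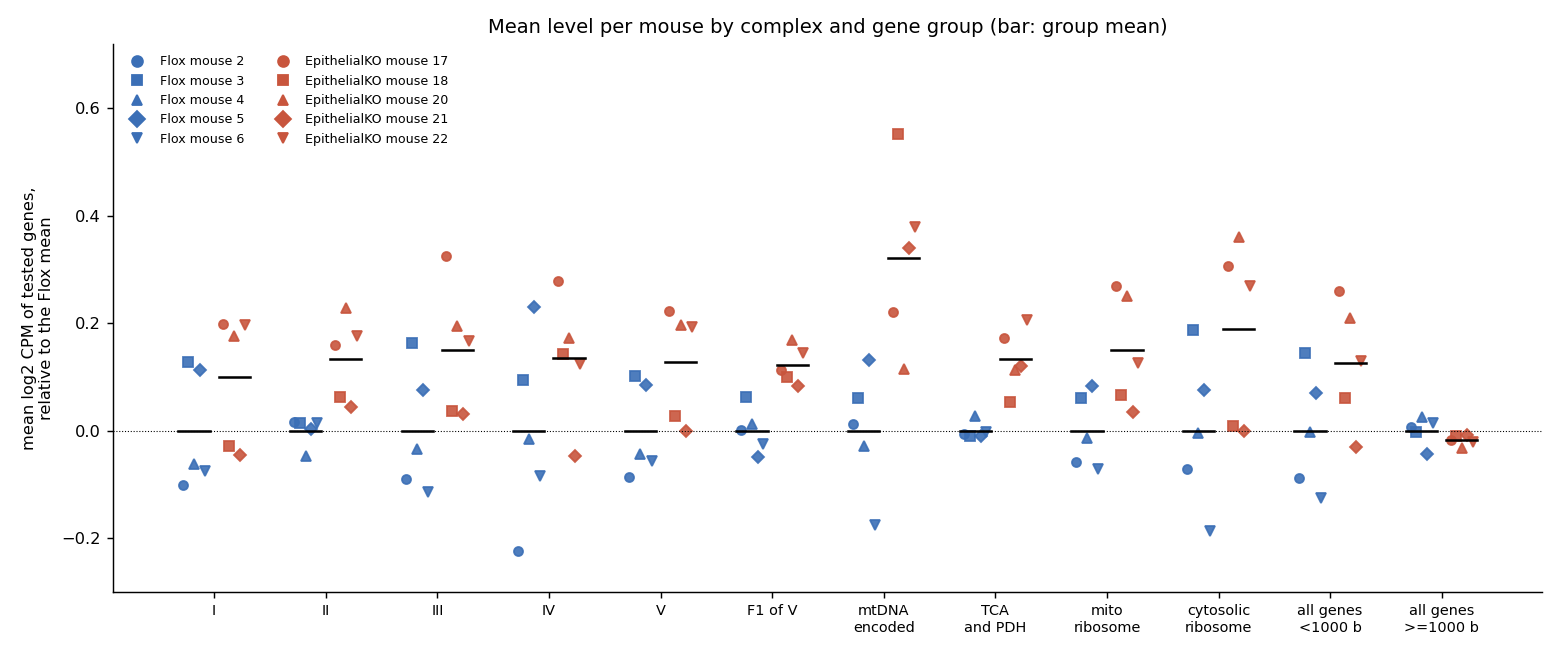
Mean log2 CPM of the tested genes of each group relative to the mean of the Flox mice (y axis), 1 point per mouse, for the complexes, other mitochondrial gene groups, cytosolic ribosomal proteins and all tested genes split at 1000 bases of transcript; bars are group means. Flox mice 3 and 5 and EpithelialKO mice 17, 20 and 22 sit high in complexes I, III and V and in all genes under 1000 bases, and only complex II, the F1 head and the group of tricarboxylic acid cycle and pyruvate dehydrogenase genes separate the groups among those made of nuclear genes shown.

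Many subunit transcripts are short, and short transcripts as a class also had a positive median. The 760 tested genes with a longest coding transcript under 1000 bases had 0.13 as their median log2 fold change and were positive in 73.0%, while the 13542 longer genes had -0.01, with 48.9% positive. The 46 tested members under 1000 bases had 0.13 (35 positive), the same to 2 decimals as the 760 short genes, which include these members. The 34 members of 1000 bases or more had 0.14 (31 positive), against -0.01 for longer genes in general, and 0.04 with the length and GC offset. Per mouse, the score of all short genes was -0.09, 0.15, -0.00, 0.07 and -0.13 in Flox and 0.26, 0.06, 0.21, -0.03 and 0.13 in EpithelialKO, high in the same mice as complexes I, III and V. The offset was fitted per mouse to these same libraries, members included, so it takes out any group difference that follows length or GC. It therefore cannot separate an effect of length from another difference between the groups, and the part of transcript length in the members' shift was not tested.

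The promoters of the 4 tested members with the lowest p are printed to show what sequence lies before genes that stood highest by the test. Each is the 250 bases before the annotated start in RefSeq, GRCm38.p6, written 5′ to 3′ on the gene's strand. Capitals mark exact matches, on either strand, to motifs named for factors that act on mitochondrial or housekeeping genes: NRF1 (a palindrome of 10 letters, those in capitals in the Ndufa11 line), ETS (CCGGAAG), YY1 (AAGATGGCG), SP1 (GGGCGG), the CCAAT box (CCAAT) and the unfolded protein response element that XBP1 and ATF6 are known to bind (TGACGTGG). Ndufa11 is at chr17:56717512-56717761 on the plus strand, Sdhb at chr4:140961021-140961270 on the plus strand, Ndufa6 at chr15:82354292-82354541 on the minus strand and Atp5o at chr16:91931631-91931880 on the minus strand.
Ndufa11: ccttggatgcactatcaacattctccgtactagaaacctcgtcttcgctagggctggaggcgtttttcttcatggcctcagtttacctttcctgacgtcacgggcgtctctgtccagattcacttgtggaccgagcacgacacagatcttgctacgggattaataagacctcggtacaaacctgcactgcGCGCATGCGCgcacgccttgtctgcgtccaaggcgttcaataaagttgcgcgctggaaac
Sdhb: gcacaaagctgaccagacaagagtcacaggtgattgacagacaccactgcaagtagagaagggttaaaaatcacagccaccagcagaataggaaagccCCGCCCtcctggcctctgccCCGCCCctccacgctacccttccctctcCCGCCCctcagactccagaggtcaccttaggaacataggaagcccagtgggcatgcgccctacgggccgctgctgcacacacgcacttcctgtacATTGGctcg
Ndufa6: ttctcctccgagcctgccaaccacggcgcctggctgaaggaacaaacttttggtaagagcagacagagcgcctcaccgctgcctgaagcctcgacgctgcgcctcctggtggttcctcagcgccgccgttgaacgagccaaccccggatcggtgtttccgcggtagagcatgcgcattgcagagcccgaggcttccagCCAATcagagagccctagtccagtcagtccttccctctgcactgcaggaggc
Atp5o: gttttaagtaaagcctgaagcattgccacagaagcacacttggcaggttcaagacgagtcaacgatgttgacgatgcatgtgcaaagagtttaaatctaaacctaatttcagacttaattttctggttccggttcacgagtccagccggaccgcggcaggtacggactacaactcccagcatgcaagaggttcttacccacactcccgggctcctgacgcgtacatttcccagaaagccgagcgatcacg
The Ndufa11 stretch holds 1 NRF1 match, which begins 60 bases before the start. The Sdhb stretch holds 3 SP1 matches on the reverse strand, beginning 152, 132 and 104 bases before the start, and a reverse CCAAT box 9 bases before it. Ndufa6 has a CCAAT box 52 bases before the start and Atp5o has no match to these letters in this window. No 2 of the printed matches overlap.

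Over 300-base windows (250 before and 50 after each start), 75 promoters of 70 members could be matched. The NRF1 letters were in 5 of them (6.67%), against 1.33% of the 21262 promoters of protein-coding genes and 1.81% of the 14426 promoters of tested genes. Those 5 belong to Ndufa11, Uqcrc1, Cox6a1, Atp5g2 and Atp5k, whose log2 fold changes run from -0.24 to 0.35. YY1 letters were in 9.33% of member promoters, against 1.83% of all and 2.61% of those of tested genes, and ETS letters in 22.7%, against 11.6% and 15.7%. The SP1 letters were less common in member promoters, 40.0% against 46.2% of all and 59.5% of those of tested genes. CCAAT letters were in 41.3%, against 38.2% and 37.0%. The unfolded protein response element was in 0 of the 75, against 0.705% of all promoters and 0.853% of those of tested genes. Each motif was counted whether or not it overlapped another, and a match is a description of letters, not of binding.

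Complex I takes electrons from NADH through a flavin and a chain of iron-sulfur clusters, and is the largest of the complexes. Ndufa11, an accessory subunit of its membrane arm (Entrez 69875, GRCm38 chromosome 17, 56717762 to 56724248), had 55.5, 65.5, 57.2, 64.9 and 57.0 CPM in the Flox mice and 80.9, 68.5, 81.3, 70.5 and 81.1 CPM in the EpithelialKO mice. Every EpithelialKO mouse was above every Flox mouse, and mice 17, 20 and 22 were the highest. Its mean was 60.0 ± 4.78 CPM in Flox and 76.5 ± 6.40 CPM in EpithelialKO (SD, 5 mice each), a fold change of 0.35 ± 0.09 (log2 ± SE; edgeR adjusted p = 0.153). Over the alternatives this adjusted p ran from 0.0421 to 0.573.

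Ndufa6, an accessory subunit that binds the mitochondrial acyl carrier protein (Entrez 67130, chromosome 15, 82350139 to 82354291), had 27.8, 30.3, 24.9, 33.4 and 24.6 CPM in the Flox mice and 35.1, 37.6, 41.5, 32.4 and 42.1 CPM in the EpithelialKO mice. EpithelialKO mouse 21 lay below Flox mouse 5, so the groups overlap by 1 pair of mice. The means were 28.2 ± 3.71 CPM in Flox and 37.8 ± 4.16 CPM in EpithelialKO (SD, 5 mice each), a fold change of 0.42 ± 0.12 (log2 ± SE; edgeR adjusted p = 0.166). Ndufb7, a subunit of the intermembrane-space side of the membrane arm (Entrez 66916, chromosome 8, 83566758 to 83571623), had 82.6, 99.3, 83.3, 104 and 89.4 CPM in the Flox mice and 125, 107, 111, 97.1 and 103 CPM in the EpithelialKO mice. Its groups overlap, with EpithelialKO mouse 17 highest, and the means were 91.7 ± 9.48 CPM in Flox and 109 ± 10.6 CPM in EpithelialKO (SD, 5 mice each), a fold change of 0.25 ± 0.10 (log2 ± SE; edgeR adjusted p = 0.300).

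Ndufs7 carries the last iron-sulfur cluster before ubiquinone (Entrez 75406, chromosome 10, 80249105 to 80256794) and is a core subunit. It had 75.7, 95.8, 81.8, 109 and 76.1 CPM in the Flox mice and 105, 107, 108, 101 and 95.7 CPM in the EpithelialKO mice. Flox mouse 5 was the highest of all 10 mice, although all EpithelialKO mice were above the Flox mean. The means were 87.7 ± 14.5 CPM in Flox and 103 ± 4.91 CPM in EpithelialKO (SD, 5 mice each), a fold change of 0.23 ± 0.11 (log2 ± SE; edgeR adjusted p = 0.378), which was 0.14 without Flox mice 4 and 6.

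Of the proteins that carry electrons from NADH towards ubiquinone, Ndufs8 was at 0.20 ± 0.10, Ndufv2 at 0.16 ± 0.12, Ndufs1 at 0.09 ± 0.10 and Ndufv1 at 0.05 ± 0.10 (log2 fold change ± SE). Ndufv1 holds the flavin and the NADH site, and Ndufs1 the most clusters. Among the accessory subunits Ndufa10, Ndufa7 and Ndufb5 were at 0.18 ± 0.09, 0.19 ± 0.09 and 0.17 ± 0.09, with all 5 EpithelialKO mice above the Flox mean in each. At the other end, Ndufa8 had -0.22 ± 0.23, Ndufs6 -0.18 ± 0.12 and Ndufb3 -0.12 ± 0.14. Ndufa8, a constitutive subunit, had few counts, 580 in all Flox mice together and 467 in EpithelialKO, where Ndufa11 had 5557 and 6650. Ndufb4b and Ndufb4c are copies of Ndufb4 with means of 0.822 and 2.48 CPM in Flox, and 37.0% of the 50-base words of Ndufb4 occur in transcripts of other genes. Ndufb4c had the highest estimate of all members, 0.57 ± 0.33, and how reads were divided among such copies was not tested.

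Complex II links the tricarboxylic acid cycle to the chain and is the complex with no subunit in mitochondrial DNA. Sdhb, its iron-sulfur subunit (Entrez 67680, chromosome 4, 140961271 to 140979198), had 114, 115, 103, 93.7 and 106 CPM in the Flox mice and 130, 124, 145, 122 and 136 CPM in the EpithelialKO mice. The lowest EpithelialKO mouse lay above the highest Flox mouse. The means were 106 ± 8.59 CPM in Flox and 132 ± 9.28 CPM in EpithelialKO (SD, 5 mice each), a fold change of 0.31 ± 0.09 (log2 ± SE; edgeR adjusted p = 0.165). Sdha, the flavoprotein that oxidises succinate, had 225, 205, 205, 222 and 210 CPM in the Flox mice and 216, 221, 223, 213 and 225 CPM in the EpithelialKO mice. Those values overlap over nearly their whole range, with a fold change of 0.04 ± 0.08 (log2 ± SE; edgeR adjusted p = 0.871). Sdhc, a membrane anchor, had 81.5, 88.8, 86.9, 98.0 and 93.3 CPM in the Flox mice and 100, 83.9, 101, 85.4 and 94.9 CPM in the EpithelialKO mice, a fold change of 0.05 ± 0.09 (log2 ± SE; edgeR adjusted p = 0.861), again with overlap. The partners in 1 complex thus had different estimates, 0.31 for Sdhb against 0.04 and 0.05; these differences were not tested. When 1 mouse was left out, Sdhc ran from 0.02 without Flox mouse 2 to 0.09 without EpithelialKO mouse 18, and Sdha was at 0.02 without Flox mice 4 and 6 or with the length and GC offset.

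Sdhd, the other membrane anchor, was not tested because its counts summed to 0 in Flox and to 16 in EpithelialKO. Uqcr11 of complex III had 8 and 2 counts and Cox7a2 of complex IV 45 and 16. These 3 are constitutive subunits, and their counts were near 0 where Sdhc, another anchor of complex II, had 8306 and 8083. The share of their 50-base words that other genes' transcripts also hold was 0%, 10.9% and 0%, and no exon base of theirs overlapped another gene; how reads of these genes were assigned is not given in the sources used here, and the cause was not tested. The other 2 untested members, Cox8c and Cox7b2, are isoforms known from testis and had 0 counts in all mice.

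Complex III moves electrons from ubiquinol to cytochrome c. Uqcrc2, a core protein on the matrix side (Entrez 67003, chromosome 7, 120635189 to 120659523), had 130, 126, 125, 110 and 127 CPM in the Flox mice and 155, 128, 146, 147 and 168 CPM in the EpithelialKO mice. EpithelialKO mouse 18 lay below Flox mouse 2 and the other 4 lay above all Flox mice, while Flox mouse 5 stood apart at the low end. The means were 124 ± 7.81 CPM in Flox and 149 ± 14.8 CPM in EpithelialKO (SD, 5 mice each), a fold change of 0.27 ± 0.09 (log2 ± SE; edgeR adjusted p = 0.241). Its transcript shares 24.8% of its 50-base words with other genes and overlaps Pdzd9 on the opposite strand, so some reads could belong elsewhere.

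Cyc1, the cytochrome c1 subunit (Entrez 66445, chromosome 15, 76343513 to 76346260), had 78.9, 76.1, 78.4, 78.3 and 76.8 CPM in the Flox mice and 103, 87.5, 79.7, 84.5 and 87.4 CPM in the EpithelialKO mice. The Flox mice lay within 3 CPM of each other and EpithelialKO mouse 20 came nearest to them. The means were 77.7 ± 1.19 CPM in Flox and 88.4 ± 8.73 CPM in EpithelialKO (SD, 5 mice each), a fold change of 0.19 ± 0.09 (log2 ± SE; edgeR adjusted p = 0.398). Without EpithelialKO mouse 17 the fold change was at its lowest over the fits that left out 1 mouse, 0.13.

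Uqcrfs1, the Rieske iron-sulfur protein, had 94.0, 115, 94.8, 98.0 and 78.9 CPM in the Flox mice and 127, 112, 109, 94.9 and 99.2 CPM in the EpithelialKO mice, a fold change of 0.17 ± 0.11 (log2 ± SE; edgeR adjusted p = 0.547). Uqcrc1, the partner of Uqcrc2 in the core, had 142, 155, 125, 136 and 127 CPM in the Flox mice and 146, 155, 152, 143 and 149 CPM in the EpithelialKO mice, a fold change of 0.12 ± 0.08 (log2 ± SE; edgeR adjusted p = 0.583). In both, the groups overlap, and the Flox mouse 3 value exceeded most EpithelialKO values. The small subunits Uqcrh, Uqcr10, Uqcrb and Uqcrq were at 0.12 ± 0.14, 0.13 ± 0.12, 0.10 ± 0.10 and 0.09 ± 0.12 on the log2 scale, so the 8 tested genes of complex III lay in a narrow band from 0.09 to 0.27. With the length and GC offset Uqcrc2 was at 0.14 and Uqcrfs1 at 0.04, and without Flox mice 4 and 6 Uqcrfs1 was at 0.08 and Uqcrc1 at 0.05. Uqcrfs1 was at 0.11 when either Flox mouse 6 or EpithelialKO mouse 17 was left out.

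**Figure D3:**
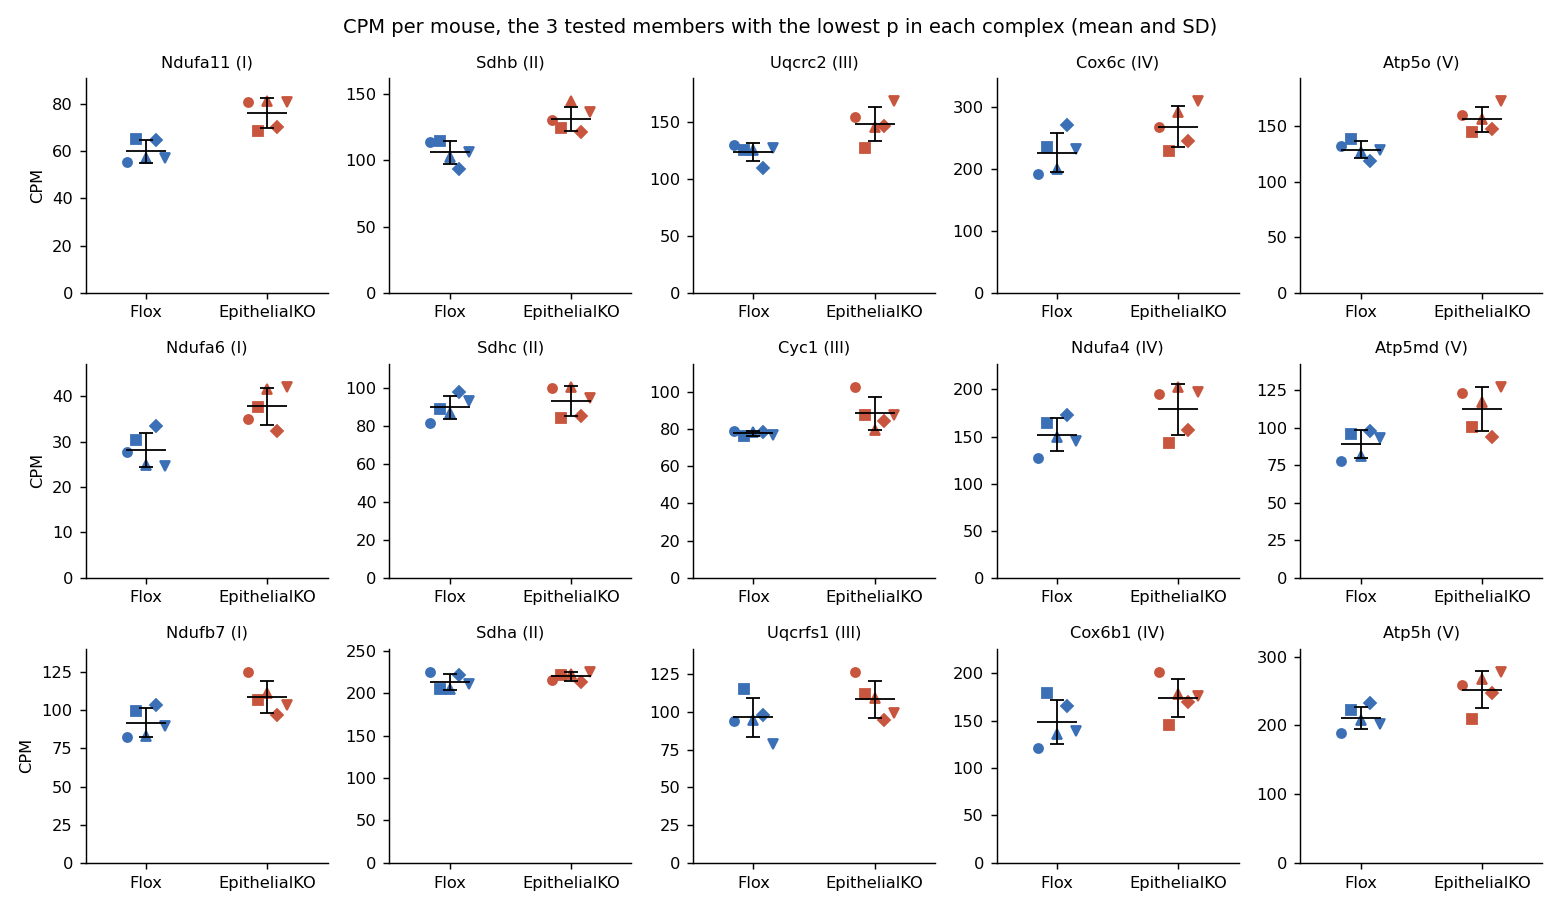
CPM in each mouse (y axis from 0) for the 3 tested members with the lowest p in each complex, 5 Flox and 5 EpithelialKO mice per panel, with the mean and SD. The Flox and EpithelialKO values do not overlap for Ndufa11, Sdhb, Cyc1 and Atp5o and overlap in the other panels; marker shapes identify mice as in the plot of means by complex.

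Complex IV reduces oxygen to water. Cox6c (Entrez 12864, chromosome 15, 35931976 to 35938246), a small membrane subunit, had 192, 236, 199, 271 and 232 CPM in the Flox mice and 268, 228, 291, 245 and 309 CPM in the EpithelialKO mice. The groups overlap, with Flox mouse 5 above 3 of the EpithelialKO mice. The means were 226 ± 31.9 CPM in Flox and 268 ± 32.9 CPM in EpithelialKO (SD, 5 mice each), a fold change of 0.25 ± 0.11 (log2 ± SE; edgeR adjusted p = 0.378). Ndufa4, long assigned to complex I and now placed in complex IV, had 127, 165, 150, 173 and 146 CPM in the Flox mice and 195, 143, 203, 157 and 197 CPM in the EpithelialKO mice, a fold change of 0.24 ± 0.11 (log2 ± SE; edgeR adjusted p = 0.412). Cox6b1, which bridges the monomers of the enzyme on the intermembrane side, had 121, 180, 136, 165 and 139 CPM in the Flox mice and 202, 146, 178, 170 and 176 CPM in the EpithelialKO mice, a fold change of 0.23 ± 0.11 (log2 ± SE; edgeR adjusted p = 0.424). In each of these 3 genes Flox mouse 2 was the lowest of all mice. With the length and GC offset the fold changes of Cox6c, Ndufa4 and Cox6b1 were much smaller, 0.06, 0.02 and 0.09 on the log2 scale.

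Cox7a2l is a relative of Cox7a2 that helps to join complexes III and IV into supercomplexes. It had 227, 245, 226, 286 and 211 CPM in the Flox mice and 298, 235, 312, 229 and 298 CPM in the EpithelialKO mice, a fold change of 0.20 ± 0.11 (log2 ± SE; edgeR adjusted p = 0.486), with EpithelialKO mice 17, 20 and 22 above all Flox mice and mice 18 and 21 within their range. It was at 0.06 with the offset and at 0.12 without Flox mice 4 and 6. The main regulatory subunit Cox4i1 had 535 ± 71.3 CPM in Flox and 571 ± 54.7 CPM in EpithelialKO (SD, 5 mice each), or 0.10 ± 0.10 as a log2 fold change. Cox5a and Cox5b, which sit beside it, were at 0.17 ± 0.17 and -0.00 ± 0.09, and share 32.0% and 25.9% of their 50-base words with other genes. Cox8a, Cox7c, Cox7b and Cox6a1 lay between 0.09 and 0.15.

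Several complex IV subunits have isoforms typical of heart and skeletal muscle, and these were rare in the lung libraries. Cox7a1 had 4.00, 2.80, 5.81, 7.06 and 3.66 CPM in the Flox mice and 6.43, 7.42, 3.18, 6.22 and 5.80 CPM in the EpithelialKO mice, a fold change of 0.32 ± 0.29 (log2 ± SE; edgeR adjusted p = 0.698). Cox8b had 1.91, 5.66, 6.30, 4.46 and 4.93 CPM in the Flox mice and 8.28, 8.41, 4.12, 1.51 and 6.03 CPM in the EpithelialKO mice, a fold change of 0.29 ± 0.40 (log2 ± SE; edgeR adjusted p = 0.820). When 1 mouse was left out, Cox7a1 ran from 0.18 without Flox mouse 3 to 0.52 without Flox mouse 5, and Cox8b from 0.09 without Flox mouse 2 to 0.53 without EpithelialKO mouse 21. Cox8b was at 0.51 without Flox mice 4 and 6 and at 0.11 with the cardiomyocyte marker score as a covariate. Both vary among mice of 1 group by more than the group means differ, with Cox8b lowest in Flox mouse 2 and EpithelialKO mouse 21. The summed level of 14 cardiomyocyte markers was 130, 190, 316, 300 and 124 CPM in the Flox mice and 351, 242, 134, 89.0 and 191 CPM in the EpithelialKO mice. It was lowest in Flox mouse 6 and EpithelialKO mouse 21, so it matched Cox8b in the latter only. In EpithelialKO mouse 21 Cox7a1 was above its Flox mean and Cox6a2, at 23.5 CPM, was the highest of all mice. No marker was at 0 in all mice. Cox6a2 had 13.9, 19.3, 19.8, 19.7 and 14.1 CPM in the Flox mice and 14.6, 18.0, 17.2, 23.5 and 19.3 CPM in the EpithelialKO mice, a fold change of 0.09 ± 0.16 (log2 ± SE; edgeR adjusted p = 0.861), and Cox6b2, an isoform best known from testis, had 9.26, 11.9, 8.53, 12.7 and 11.3 CPM in the Flox mice and 11.7, 9.67, 13.5, 10.8 and 9.63 CPM in the EpithelialKO mice, a fold change of 0.05 ± 0.17 (log2 ± SE; edgeR adjusted p = 0.951). The sign of these last 2 estimates turned in some of the fits that left out 1 mouse and with the length and GC offset.

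Set against the common isoform per kilobase of transcript, the muscle isoforms Cox6a2 and Cox8b were a small share in both groups. Cox6a2 made up 5.17% ± 0.922 of the Cox6a pair in Flox and 5.21% ± 1.08 in EpithelialKO (SD, n = 5 each). Cox8b was 3.80% ± 1.48 and 4.03% ± 1.96 of the Cox8 pair, and Cox7a1 was 4.30% ± 1.26 and 4.84% ± 1.72 of its sum with Cox7a2l. Cox7a2l is not the common isoform of Cox7a1, and Cox7a2 had too few counts to be tested. The Cox7a1 value therefore does not give the muscle share among Cox7a isoforms. Those shares differed between the groups by less than the SD. For Ndufa4l2, a paralog of Ndufa4 that hypoxia is known to induce, the levels were 29.1, 27.3, 30.7, 36.4 and 27.9 CPM in the Flox mice and 29.1, 31.5, 35.6, 22.5 and 17.5 CPM in the EpithelialKO mice, a fold change of -0.15 ± 0.17 (log2 ± SE; edgeR adjusted p = 0.759). That estimate ran from -0.27 without EpithelialKO mouse 20 to -0.03 without EpithelialKO mouse 22. Its share beside Ndufa4 was 11.6% ± 1.20 in Flox and 9.14% ± 2.59 in EpithelialKO, with EpithelialKO mouse 22 lowest at 5.47%. Cox4i2, the paralog of Cox4i1 that lung is known for, is outside the rule; its share was 10.1% ± 1.86 and 8.39% ± 2.04, and its log2 fold change -0.17 ± 0.17.

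**Figure D4:**
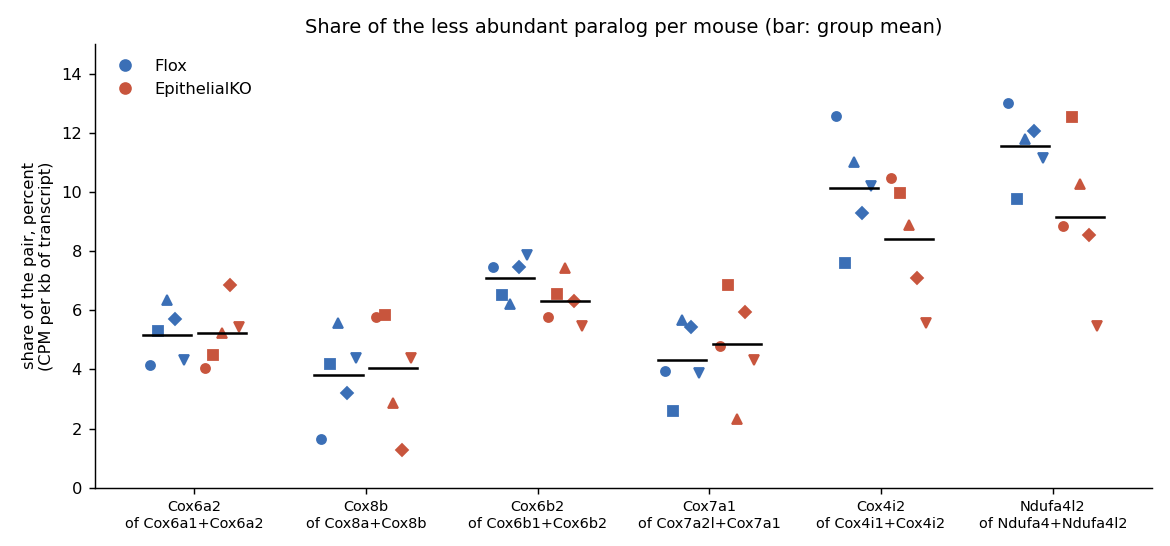
Share of the less abundant gene in each of 6 pairs of paralogs, in percent of the pair's summed CPM per kilobase (y axis), 1 point per mouse, 5 mice per group; bars are group means. The muscle isoforms, with Cox7a1 set against Cox7a2l, lie between 1.29 and 6.86 percent in every mouse, and the points of the groups overlap in each pair.

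Complex V is a rotary enzyme with a membrane part that carries protons, a stalk and a head that makes ATP. Atp5o, the stalk protein that gives it oligomycin sensitivity (Entrez 28080, chromosome 16, 91925223 to 91931630), had 132, 139, 127, 119 and 128 CPM in the Flox mice and 160, 144, 156, 148 and 172 CPM in the EpithelialKO mice. All EpithelialKO mice were above all Flox mice. The means were 129 ± 7.34 CPM in Flox and 156 ± 11.0 CPM in EpithelialKO (SD, 5 mice each), a fold change of 0.28 ± 0.08 (log2 ± SE; edgeR adjusted p = 0.181). Atp5o has a second, overlapping gene model on the same strand in the annotation, which covers 48.6% of its exon bases, and 50.3% of its 50-base words occur in other transcripts, so its counts depend on how such reads were assigned.

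Atp5md, a small subunit of the membrane part also known as DAPIT (Entrez 66477, chromosome 19, 47083471 to 47090647), had 77.9, 95.8, 80.9, 98.1 and 93.2 CPM in the Flox mice and 123, 101, 117, 93.9 and 128 CPM in the EpithelialKO mice. The groups overlap only through EpithelialKO mouse 21, which lay below Flox mice 3 and 5. The means were 89.2 ± 9.16 CPM in Flox and 113 ± 14.6 CPM in EpithelialKO (SD, 5 mice each), a fold change of 0.34 ± 0.11 (log2 ± SE; edgeR adjusted p = 0.203). Atp5h, the d subunit of the stalk (Entrez 71679, chromosome 11, 115415691 to 115419919), had 189, 222, 208, 232 and 203 CPM in the Flox mice and 258, 209, 268, 247 and 278 CPM in the EpithelialKO mice. EpithelialKO mouse 18 lay within the Flox range and the other 4 above it. The means were 211 ± 16.7 CPM in Flox and 252 ± 26.8 CPM in EpithelialKO (SD, 5 mice each), a fold change of 0.26 ± 0.10 (log2 ± SE; edgeR adjusted p = 0.274). Other genes share 47.9% of its 50-base words, and with the length and GC offset its log2 fold change was 0.10.

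Atp5c1, the central shaft (γ) of the F1 head (Entrez 11949, chromosome 2, 10056030 to 10080510), had 190, 182, 190, 176 and 196 CPM in the Flox mice and 207, 198, 211, 207 and 269 CPM in the EpithelialKO mice. The groups do not overlap, but EpithelialKO mouse 22 stood apart above the other 4, and without it the log2 fold change was 0.14. The means were 187 ± 7.98 CPM in Flox and 218 ± 28.5 CPM in EpithelialKO (SD, 5 mice each), a fold change of 0.22 ± 0.09 (log2 ± SE; edgeR adjusted p = 0.335). The F1 subunits Atp5b and Atp5a1 were at 557 ± 47.5 and 546 ± 21.7 CPM in Flox and at 618 ± 33.7 and 597 ± 23.2 CPM in EpithelialKO (SD, 5 mice each), log2 fold changes of 0.15 ± 0.09 and 0.13 ± 0.08. In both, all 5 EpithelialKO mice lay above the Flox mean.

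The c ring of the membrane part is built from identical proteins made by 3 genes. Atp5g1, Atp5g2 and Atp5g3 were at 0.14 ± 0.12, 0.08 ± 0.14 and -0.08 ± 0.13. Transcripts of other genes hold 11.6%, 87.4% and 0% of their 50-base words in the same order, so the Atp5g2 counts depend on how such reads were assigned. Atp5k, a subunit needed for dimers of the enzyme, had the lowest estimate of complex V and of all members, -0.24 ± 0.13 (31.3 ± 2.73 CPM in Flox and 26.5 ± 4.89 CPM in EpithelialKO, SD, n = 5 each; edgeR adjusted p = 0.481). Atp5e, the smallest subunit of the F1 head, was at -0.02 ± 0.10, and Atp5pb, the b subunit of the stalk, at 0.21 ± 0.11. Atp5pb shares 38.7% of its 50-base words with other genes.

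Levels per kilobase of transcript in Flox ranked the complexes nearly as their median fold changes did, with I and II swapped and IV and V swapped. In Flox, the median level of the tested members with a transcript model was 67.4 CPM per kilobase in complex I, 73.6 in complex II, 82.9 in complex III, 160 in complex IV and 154 in complex V. In EpithelialKO it was 171 in complex IV and 186 in complex V, so only I and II were swapped. The EpithelialKO levels already contain the fold changes, so their order is no separate comparison. In both groups the complex V median was the value of Atp5o, 154 in Flox and 186 in EpithelialKO. Cox4i1 was the most abundant subunit at 699, followed by Cox6a1 at 468, Atp5e at 394, Uqcrh at 380 and Cox8a at 330 CPM per kilobase. The fold changes of these 5 genes lay between -0.02 and 0.15 on the log2 scale. Within groups the median SD in log2 CPM was 0.17 over the members and 0.26 over all tested genes. These sets were not matched for level, so the values do not set the members apart from other abundant genes. Members under 1000 bases varied more than longer ones (0.19 against 0.14).

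The mitochondrial genome supplies the remaining subunits, and its transcripts also stood higher in EpithelialKO lungs. The log2 fold change was positive in all 13 protein genes, and its median was 0.33; 8 had an unadjusted edgeR p under 0.05 and 0 passed the adjusted threshold. Their summed level was 24240, 24360, 23360, 25760 and 23020 CPM in Flox and 31380, 31780, 26460, 31660 and 33190 CPM in EpithelialKO, without overlap. COX1, a catalytic subunit of complex IV, had 9740, 9606, 9704, 10970 and 9263 CPM in the Flox mice and 13270, 13050, 11080, 13420 and 14340 CPM in the EpithelialKO mice, a fold change of 0.40 ± 0.10 (log2 ± SE; edgeR adjusted p = 0.116). CYTB of complex III had 3871, 3848, 3807, 3912 and 3727 CPM in the Flox mice and 4736, 5187, 4040, 5122 and 5169 CPM in the EpithelialKO mice, a fold change of 0.34 ± 0.09 (log2 ± SE; edgeR adjusted p = 0.153). ND2 and ND1 of complex I were at 0.34 ± 0.09 and 0.33 ± 0.10, and in these 4 genes no Flox mouse reached the lowest EpithelialKO mouse. The order of mice differed from that of the nuclear subunits: EpithelialKO mice 18 and 21, low in complex I, had COX1 levels close to those of mice 17 and 22.

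Some mitochondrial genes cannot be read at face value. COX2, ATP6, COX3, ND3 and ND4L had means between 4.08 and 25.1 CPM in Flox beside 9858 CPM for COX1, and 98.0% to 100% of their 50-base words occur in transcripts of other genes. ATP8 was lower still, at 0.744 CPM, and shares 0% of its words. COX3 had the largest estimate, 1.02 ± 0.33 (edgeR adjusted p = 0.250), with 67.7 and 56.8 CPM in EpithelialKO mice 18 and 21 and 15.6 to 24.5 CPM in the other mice. Among the abundant genes, CYTB, ND1 and ND6 share 0% of their words with other genes, COX1 51.1% and ND4 62.2%. With the length and GC offset the median of the 13 genes was 0.09.

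**Figure D5:**
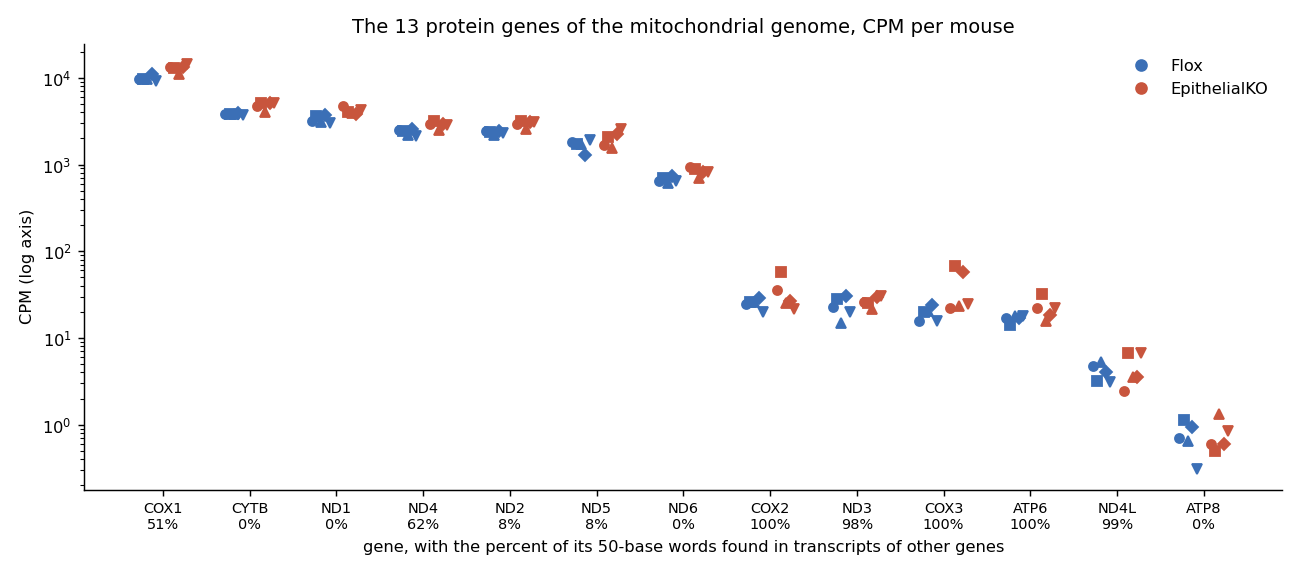
CPM in each mouse (log axis) for the 13 protein genes of the mitochondrial genome, ordered by their Flox mean, 5 Flox and 5 EpithelialKO mice each; the percent under each name is the share of the gene's 50-base words found in transcripts of other genes. The 7 genes at or above 613 CPM lie mostly higher in EpithelialKO, and the 6 genes at or below 67.7 CPM scatter.

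Most other genes of mitochondrial metabolism also had a positive estimate. Of 18 tested genes of the tricarboxylic acid cycle and pyruvate dehydrogenase, 17 were positive (median 0.09) and 4 had an unadjusted p under 0.05; per mouse their mean was -0.01, -0.01, 0.03, -0.01 and -0.00 in Flox and 0.17, 0.05, 0.11, 0.12 and 0.21 in EpithelialKO, without overlap. Fumarase, Fh1, had 62.4 ± 3.56 and 79.3 ± 4.61 CPM and the NADP-linked isocitrate dehydrogenase Idh2 157 ± 14.2 and 202 ± 21.8 CPM (Flox and EpithelialKO, SD, n = 5 each), with log2 fold changes of 0.34 ± 0.09 and 0.36 ± 0.10 and edgeR adjusted p of 0.127 and 0.151. Of 77 tested proteins of the mitochondrial ribosome, which translates the 13 mitochondrial mRNAs, 67 were positive (median 0.14) and 15 had an unadjusted p under 0.05, with Mrps2 at 0.55 ± 0.14; the median was 0.06 with the length and GC offset. Carriers and transporters had 18 of 21 positive (median 0.15), among them cytochrome c, Cycs, at 0.32 ± 0.10. Coq8a, a kinase-like protein needed to make ubiquinone, went the other way at -0.40 ± 0.17, with all 5 EpithelialKO mice below the Flox mean (edgeR adjusted p = 0.344). With the offset the medians of the carriers and of the cycle genes were 0.07 and 0.05.

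Assembly factors, which build the complexes without remaining in them, had 32 of 44 positive (median 0.09), with Coa6 at 0.34 ± 0.13 and Ndufaf2 at 0.45 ± 0.19. Regulators of mitochondrial biogenesis were mixed, 12 of 21 positive with a median of 0.03 (-0.01 without Flox mouse 3). The lowest p among them belonged to Tfb1m, a methyltransferase of mitochondrial ribosomal RNA, at 0.75 ± 0.24 with 4.13 CPM in Flox and 6.94 CPM in EpithelialKO (edgeR adjusted p = 0.220), followed by the mitochondrial transcription factor Tfb2m at 0.31 ± 0.13 (edgeR adjusted p = 0.360). In both, all 5 EpithelialKO mice lay above the Flox mean. The coactivator Ppargc1a was at 0.44 ± 0.36, the mitochondrial DNA packaging factor Tfam at -0.02 ± 0.12, the transcription factor Nrf1 at -0.22 ± 0.12 and the nuclear receptor Esrra at -0.12 ± 0.15. In none of these lists did a gene pass the edgeR threshold. Cytosolic ribosomal proteins, another set of short and abundant transcripts, had 77 of 82 positive (median 0.21) and 30 with an unadjusted p under 0.05, where the median of the subunits was 0.13. The ribosomal median was 0.10 with the length and GC offset and 0.14 without Flox mice 4 and 6.

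Marker lists of lung cell types leaned to one side as well, without a gene past the threshold. The 12 AT2 markers were all positive (median 0.25), with summed levels of 51690 to 62330 CPM in Flox and 62160 to 77020 CPM in EpithelialKO. Club and ciliated markers had 10 of 10 and 12 of 12 positive (medians 0.48 and 0.42), with sums of 23020 to 49380 against 36400 to 56880 CPM and 632 to 920 against 783 to 1144 CPM. Endothelial markers had 9 of 10 negative and fibroblast and matrix markers 11 of 12 negative (medians -0.38 and -0.43), with sums of 3563 to 4543 against 2751 to 3559 CPM and 1497 to 2396 against 1342 to 1409 CPM. AT1 markers had 3 of 10 positive (median -0.06; sums 7159 to 8708 against 6475 to 9333 CPM) and alveolar macrophage markers 6 of 10 (median 0.14; sums 860 to 1529 against 1109 to 2262 CPM). Adipocyte and erythroid markers had 8 of 8 and 6 of 6 positive (medians 0.58 and 0.33), with sums of 98.8 to 356 against 128 to 330 CPM and 1157 to 4862 against 2192 to 5486 CPM. No marker of these lists was at 0 in all mice, and the part of these cell types in the level of the subunits was not tested. With the cardiomyocyte marker score as a covariate, the medians of complexes I to V were 0.10, 0.05, 0.13, 0.13 and 0.15, with 67 of 82 members positive.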

How the data were processed

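Whole-lung RNA of 10 mice was sequenced after capture on oligo(dT) beads, fragmentation and random priming, per the labels' protocols. The authors deposited whole-number counts per Entrez gene, 1 column per mouse, without normalization. Trimming used cutadapt, alignment HISAT2 and the build was GRCm38, per the submitters' processing notes. Which tool and annotation made the counts, with what strand setting, and what was done with reads that match several genes, is not given in the sources used here. Genes that overlap or resemble others may therefore share reads.

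Symbols came from the RefSeq table of GRCm38.p6 and matched 25275 of 27179 genes. Counts were filtered with filterByExpr at its defaults (15301 genes left), scaled by TMM, and compared by edgeR 4.0.16 (R 4.3.3) in its robust quasi-likelihood F test with only group in the model, with Benjamini-Hochberg adjustment over all tested genes and a threshold of 0.05. The procedure was tested on simulated data, in 2 runs with 200 changed genes each, drawn at random from expressed genes. It recovered 6% of changes of 1.25 fold, 34% of 1.5 fold, 71% of 2 fold and 94% of 4 fold, and 6.39% of its calls were false. A lack of calls among the members therefore does not exclude small changes. Fold changes are given on the log2 scale as EpithelialKO over Flox, with an SE from the F statistic. Scores per mouse are means of log2 CPM (prior count 2) and carry no test. Transcript lengths and shared 50-base words come from GENCODE M21 transcripts. Members, lists and tests were chosen with earlier results of these data known. Named members are, per complex, the 4 tested members with the lowest p, plus tissue-restricted isoforms and associated members; of other lists, up to 3 with the lowest p. Others named for their role or their place in the range were chosen after their values were seen.

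Alternatives were DESeq2 size factors, upper-quartile scaling, DESeq2's Wald test (1.42.0), voom with sample quality weights (limma 3.58.1), no count filter, 1 CPM in 5 mice, leaving out each mouse, leaving out Flox mice 4 and 6, a cardiomyocyte score as covariate, an offset per mouse for length and GC of the transcript (known for 93.5% of tested genes), a threshold of 0.1, and other assignments of members to complexes. No pair of mice agreed within counting noise (lowest chi-square per degree of freedom 17.8), so each counted as 1 sample. 1 tested member entered all counts and medians and is not reported here by name.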

Additional observations from a re-analysis of the deposited data

Results flagged for a closer look

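Among 58 groups of 5 mice examined, 3 held a value far from the other 4; about 1 group in 20 does so by chance. For Uqcrc2 it was Flox mouse 5, at 110 CPM, below the other Flox mice. For Atp5c1 it was EpithelialKO mouse 22, at 269 CPM, above the other EpithelialKO mice. For the mean of the complex II genes it was Flox mouse 4, at -0.05 relative to the Flox mean on the log2 scale.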

How the results depend on the processing

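No paired analysis was possible because the groups share no mouse numbers. The number of genes called over the whole table, 6 by edgeR, was 279 by the DESeq2 Wald test, 32 by limma-voom, 34 without a count filter, 24 with the cardiomyocyte score as a covariate, 38 at a threshold of 0.1, and 0 without Flox mice 4 and 6 or with the length and GC offset (1207 and 1516 genes at an unadjusted edgeR p under 0.05). Leaving out 1 mouse gave 0 to 48 calls, with 48 when Flox mouse 5 was left out and 0 for any other mouse (1444 to 1960 genes at an unadjusted edgeR p under 0.05). The number of members called was 1 by the DESeq2 Wald test (Ndufa11, log2 fold change 0.35, DESeq2 adjusted p = 0.0421) and 0 under the other alternatives, where 7 to 20 members had an unadjusted p under 0.05.

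When 1 mouse at a time was left out, the median log2 fold change ran from 0.05 to 0.15 in complex I, from 0.04 to 0.09 in complex II, from 0.09 to 0.18 in complex III, from 0.09 to 0.19 in complex IV and from 0.12 to 0.18 in complex V, with 64 to 76 members positive. The median of complex II was 0.18 without a count filter, where Sdhd enters. Under the length and GC offset the medians of the other lists, an alternative added after seeing the data, were 0.0905 for mitochondrially encoded genes, 0.0014 for assembly factors, 0.0452 for the tricarboxylic acid cycle, 0.105 for biogenesis regulators, 0.0689 for carriers, 0.064 for the mitochondrial ribosome, 0.0958 for cytosolic ribosomal proteins, 0.0436 for members of 1000 bases or more and 0.0075 for all genes under 1000 bases. The value near 0 for all short genes follows from the fit itself, because the offset was fitted to the length and GC of these same genes. For the other lists too, the offset takes out any group difference that follows length or GC. The tricarboxylic acid cycle list had 0.14 without Flox mice 4 and 6. Cox6b2 turned sign without Flox mouse 2, Flox mouse 4 or EpithelialKO mouse 20, with a range of -0.0345 to 0.113 when 1 mouse was left out, and stood at -0.0211 without Flox mice 4 and 6 and at -0.0528 under the offset. Cox6a2 turned sign without EpithelialKO mouse 21, with a range of -0.0069 to 0.168, and stood at -0.0005 under the offset. The causes of these differences were not tested. With 5 mice per group, the mean log2 CPM per mouse had a pooled SD of 0.12, 0.06, 0.12, 0.15 and 0.10 in complexes I to V. The group means of these scores differed by 0.10, 0.13, 0.15, 0.13 and 0.13 in the same order. The members with the lowest p were picked by the size of their estimate beside its standard error, and none passed the edgeR threshold.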
